A study of Mus musculus with 8 samples.

Results

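The 4 adult globin genes Hba-a1, Hba-a2, Hbb-bs and Hbb-bt and the erythroid heme enzyme gene Alas2 were described in brain RNA of Nsun5-KO and wild type (WT) mice. The genes were taken by symbol, as the 5 rows of the raw count table of 54532 genes that carry these names. All 5 passed the filter on low counts, which kept 16062 genes. The compared groups were 4 libraries labelled Nsun5-KO and 4 labelled WT, each from brain tissue of male mice aged 3 months. The labels name 5 mice of each genotype, all from a single litter and all anaesthetised with pentobarbital at 50 mg/kg. They give neither the strain nor the kind of Nsun5 allele. The series asks how loss of Nsun5, a methyltransferase of ribosomal RNA, bears on myelin and sleep.

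Adult hemoglobin joins alpha chains, encoded by Hba-a1 and Hba-a2, with beta chains, encoded by Hbb-bs and Hbb-bt, and each chain holds a heme. Alas2 makes the erythroid form of aminolevulinate synthase, the enzyme that opens the heme pathway in red cell precursors. Young red cells still carry globin mRNA after they lose the nucleus, so blood left in the vessels brings these transcripts into a tissue sample, and low globin expression has also been described in some neurons and glia.

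The 2 alpha genes are near-identical copies, and so are the 2 beta genes. Hba-a1 (ENSMUSG00000069919) lies at chr11:32283511-32284465 and Hba-a2 (ENSMUSG00000069917) at chr11:32296489-32297298, both on the plus strand of mm10 and both with 3 exons. Hbb-bs (ENSMUSG00000052305) lies at chr7:103826534-103828096 and Hbb-bt (ENSMUSG00000073940) at chr7:103812524-103813996, both on the minus strand and both with 3 exons. In GENCODE M21, whose gene coordinates and exon lengths equal the deposited ones for all 5 genes, the alpha coding sequences were the same at 428 of 429 bases and the beta coding sequences at 443 of 444. The base that differs is C381T between Hba-a1 and Hba-a2 and C417T between Hbb-bs and Hbb-bt, with positions counted from 1 at the A of the start codon and the base of the gene named first given first. Both fall on the third base of a codon in the last exon. The stretches around them are shown because a read that lies within the coding sequence can be told apart between copies only if it covers this base, which is in capitals. The windows are coding sequence of the mm10 transcripts, at chr11:32284313-32284373 (plus) for Hba-a1, chr11:32297130-32297190 (plus) for Hba-a2, chr7:103826665-103826722 (minus) for Hbb-bs and chr7:103812656-103812713 (minus) for Hbb-bt, the last pair running to the stop codon.
Hba-a1: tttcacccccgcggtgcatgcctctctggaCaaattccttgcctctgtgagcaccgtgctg
Hba-a2: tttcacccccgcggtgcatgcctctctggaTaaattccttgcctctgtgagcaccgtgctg
Hbb-bs: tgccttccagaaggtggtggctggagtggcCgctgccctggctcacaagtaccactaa
Hbb-bt: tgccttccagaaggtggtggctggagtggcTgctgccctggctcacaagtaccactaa

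Outside the coding sequence the alpha and beta pairs differed in how much sets the copies apart. The aligned 5′ and 3′ untranslated bases of Hba-a1 and Hba-a2 were the same at 35 of 35 and 74 of 74 positions. Beside the coding base, what separates the alpha transcripts is the start of the Hba-a1 transcript, of which 161 bases lie before the first base of the Hba-a2 transcript, and 16 bases at the 3′ end of Hba-a2. Those 161 bases also stand as 1 unbroken run in the genome just upstream of Hba-a2, within its RefSeq promoter window (GRCm38.p6). A read that lies within them matches both places in the genome, of which the annotation counts that at Hba-a1 as exon. RefSeq starts Hba-a1 only after them, since its upstream stretch chr11:32283552-32283671 lies inside the GENCODE gene. The RefSeq upstream stretch of Hbb-bs, chr7:103827929-103828048, likewise lies inside the GENCODE gene, and that of Hbb-bt, chr7:103813924-103814043, reaches into it. That of Hba-a2, chr11:32296372-32296491, ends just past the GENCODE start at 32296489. The window shares given next use the GENCODE starts and depend on them. The beta copies had more to separate them, with 44 of 53 aligned 5′ untranslated bases and 93 of 122 aligned 3′ untranslated bases the same. Windows were cut from the main transcript of each gene, of 699 bases for Hba-a1, 554 for Hba-a2, 628 for Hbb-bs and 703 for Hbb-bt. The deposited exon lengths are 812, 667, 768 and 703 bases, and exon bases outside the main transcript were not compared. Across the whole transcript set, 86.9% of the 50-base windows of Hba-a2 and 67.5% of those of Hba-a1 also occurred in the other copy. For the beta pair, 65.8% of the Hbb-bs windows and 58.3% of the Hbb-bt windows did. With windows of 150 bases the shares were 65.7% for Hba-a2, 48.4% for Hba-a1, 58.7% for Hbb-bs and 50.7% for Hbb-bt. No other gene shared a 50-base window with the main transcript of any of the 4 globins. The read length, the read counter and its treatment of reads that match several places are unknown here, so each single globin row is an uncertain measure of its copy. A sum over a pair of copies does not depend on how reads shared by both were divided, provided that each was counted once.

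**Figure D1:**
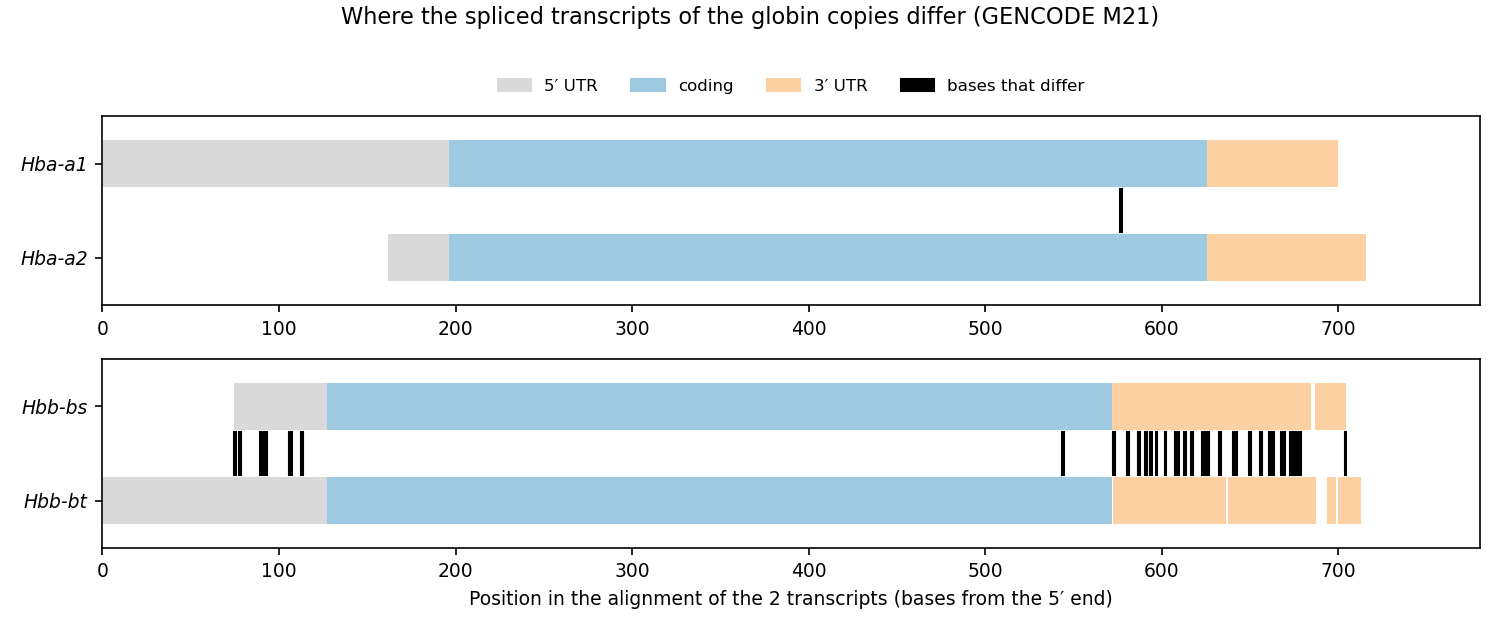
Main spliced transcripts of the alpha pair (upper panel) and the beta pair (lower panel) in GENCODE M21, aligned from the 5′ end. Position in bases is on the x axis, with colours for untranslated and coding parts and black marks for bases that differ. The alpha copies differ at 1 aligned base, and the beta copies at 1 coding base and at several in both untranslated parts.

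Alas2 (ENSMUSG00000025270) lies at chrX:150547375-150570638 on the plus strand and has 11 exons in its main transcript. It lies within the span of Apex2, a DNA repair endonuclease gene on the opposite strand, whose exons cover 311 of the 2403 exonic bases of Alas2. The library kit does not mark strand, so reads there cannot be assigned to either gene. Apex2 had 77 to 99 counts in libraries labelled Nsun5-KO and 78 to 92 in WT libraries (log2 fold change 0.08, SE 0.15, edgeR adjusted p = 0.903). The microRNA gene Mir3620, also inside Alas2, had 0 counts in every library.

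The 8 libraries held 15642086 to 17829523 counts and 22210 to 22944 genes with at least 1 count, and mitochondrial genes took 5.52% to 7.68% of counts. On the first principal component, which held 25.7% of the variance, WT replicates 1 and 2 stood at -29.7 and -36.0 and the remaining 6 libraries at 1.75 to 23.8. Nsun5 itself had 102, 124, 83 and 110 counts in replicates 1 to 4 labelled Nsun5-KO and 91, 82, 103 and 109 in WT (log2 fold change 0.13, SE 0.15, edgeR adjusted p = 0.817). The counts of the targeted gene therefore did not bear out the label. With the kind of allele unknown they do not settle the genotype either, and directions are given for libraries as labelled. The labels do not tie the libraries to separate mice, so p-values measure the spread between these libraries, which may be technical. The 8 genes of the brain list summed to 10927 to 11895 CPM (counts scaled to library size) in libraries labelled Nsun5-KO and 10971 to 12402 CPM in WT libraries.

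Taken over all 8 libraries, the globins were a small part of the RNA. The 4 globin rows held 3444, 1413, 1334 and 1156 counts in replicates 1 to 4 labelled Nsun5-KO and 1090, 2346, 1560 and 2313 counts in WT replicates 1 to 4. These were 0.00648% to 0.0212% of a library labelled Nsun5-KO and 0.00637% to 0.0150% of a WT library. Per length, as the deposited FPKM (counts divided by gene length and library size), Hbb-bs had the highest mean level over the 8 libraries at 78.8 FPKM and Hba-a1 followed at 46.6 FPKM. Hbb-bt had 9.72 FPKM, Hba-a2 7.41 FPKM and Alas2 1.11 FPKM. Hbb-bs lay above Hba-a1 in 8 of 8 libraries, Hba-a1 above Hbb-bt in 8 of 8, and Hba-a2 above Alas2 in 8 of 8. Hbb-bt and Hba-a2 are neighbours without a set order, since Hbb-bt was the higher in 4 of 8 libraries.

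The major alpha row, Hba-a1, had 1240, 508, 405 and 332 counts in replicates 1 to 4 labelled Nsun5-KO and 384, 829, 546 and 788 counts in WT replicates 1 to 4. The highest of the 8 libraries was replicate 1 labelled Nsun5-KO and the lowest replicate 4 of the same group, so the groups overlapped. Scaled to library size, Hba-a1 averaged 38.0 ± 27.0 CPM in libraries labelled Nsun5-KO and 38.3 ± 13.5 CPM in WT libraries (SD, n = 4 each). The log2 fold change of libraries labelled Nsun5-KO over WT was -0.01 (95% interval -1.24 to 1.22, SE 0.51, edgeR adjusted p = 0.996). Without replicate 1 labelled Nsun5-KO it was -0.63, and its adjusted p was 0.711.

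The minor alpha row, Hba-a2, had 36, 50, 55 and 75 counts in replicates 1 to 4 labelled Nsun5-KO and 78, 155, 120 and 93 counts in WT replicates 1 to 4. Every library labelled Nsun5-KO lay below every WT library, by counts and by CPM, as did 2.71% of all tested genes by CPM. The library with the most Hba-a1, replicate 1 labelled Nsun5-KO, had the least Hba-a2. Hba-a2 averaged 3.22 ± 0.836 CPM in libraries labelled Nsun5-KO and 6.75 ± 2.42 CPM in WT libraries (SD, n = 4 each), 0.477 times the WT mean. Its log2 fold change was -1.06 (SE 0.27, 95% interval -1.64 to -0.48), with an unadjusted p of 0.00195 and an edgeR adjusted p = 0.313, so Hba-a2 did not pass the threshold of 0.05 across all genes. DESeq2, run as an alternative, gave -1.06 with an adjusted p = 0.0395 and called it. The edgeR value was -0.93 (adjusted p 0.566) with replicate 1 labelled Nsun5-KO left out, and -0.96 (adjusted p 0.644) with WT replicates 1 and 2 left out. Of the 50-base windows of its main transcript, 86.9% also occur in Hba-a1. This is therefore a difference of the deposited Hba-a2 row, and reads that match both copies cannot be assigned to either.

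The alpha rows were therefore also summed before the fit. The sum was 80.2, 32.9, 28.6 and 23.1 CPM in replicates 1 to 4 labelled Nsun5-KO and 26.9, 63.1, 40.3 and 49.97 CPM in WT replicates 1 to 4. The groups overlapped, with 1 library labelled Nsun5-KO above and 1 below all WT libraries. The log2 fold change of the sum was -0.13 (95% interval -1.24 to 0.98, SE 0.46, edgeR adjusted p = 0.948). Without replicate 1 labelled Nsun5-KO it was -0.67 with an adjusted p of 0.679, and without WT replicate 2 it was 0.07.

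The major beta row, Hbb-bs, had 1896, 781, 799 and 686 counts in replicates 1 to 4 labelled Nsun5-KO and 577, 1234, 795 and 1287 counts in WT replicates 1 to 4. The highest library was replicate 1 labelled Nsun5-KO and the lowest WT replicate 1, and the other 3 libraries labelled Nsun5-KO lay within the WT range. The mean was 63.5 ± 37.4 CPM in libraries labelled Nsun5-KO and 58.4 ± 21.3 CPM in WT libraries (SD, n = 4 each; log2 fold change 0.12, 95% interval -0.96 to 1.20, SE 0.45, edgeR adjusted p = 0.953). Without replicate 1 labelled Nsun5-KO the value was -0.38, with an adjusted p of 0.825.

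The minor beta row, Hbb-bt, had 272, 74, 75 and 63 counts in replicates 1 to 4 labelled Nsun5-KO and 51, 128, 99 and 145 counts in WT replicates 1 to 4. It followed Hbb-bs, with replicate 1 labelled Nsun5-KO highest, WT replicate 1 lowest and the remaining libraries labelled Nsun5-KO inside the WT range. The mean was 7.43 ± 6.47 CPM in libraries labelled Nsun5-KO and 6.35 ± 2.49 CPM in WT libraries (SD, n = 4 each; log2 fold change 0.22, 95% interval -1.15 to 1.60, SE 0.59, edgeR adjusted p = 0.930), and -0.59 without replicate 1 labelled Nsun5-KO (adjusted p 0.716). The summed beta rows gave 136, 50.5, 54.3 and 42.5 CPM in replicates 1 to 4 labelled Nsun5-KO and 36.5, 87.3, 54.1 and 81.2 CPM in WT replicates 1 to 4. That sum, too, overlapped between the groups (log2 fold change 0.13, 95% interval -0.99 to 1.25, SE 0.47, edgeR adjusted p = 0.949), and it was -0.40 without replicate 1 labelled Nsun5-KO.

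Alas2 had 79, 18, 19 and 43 counts in replicates 1 to 4 labelled Nsun5-KO and 25, 90, 37 and 43 counts in WT replicates 1 to 4. The highest were replicate 1 labelled Nsun5-KO and WT replicate 2, the lowest were replicates 2 and 3 labelled Nsun5-KO, and the groups overlapped. The mean was 2.41 ± 1.81 CPM in libraries labelled Nsun5-KO and 2.98 ± 1.91 CPM in WT libraries (SD, n = 4 each; log2 fold change -0.30, 95% interval -1.57 to 0.98, SE 0.57, edgeR adjusted p = 0.896). WT replicate 2 set its direction, since the value was 0.23 without it, and it was -0.92 without replicate 1 labelled Nsun5-KO (adjusted p 0.719).

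**Figure D2:**
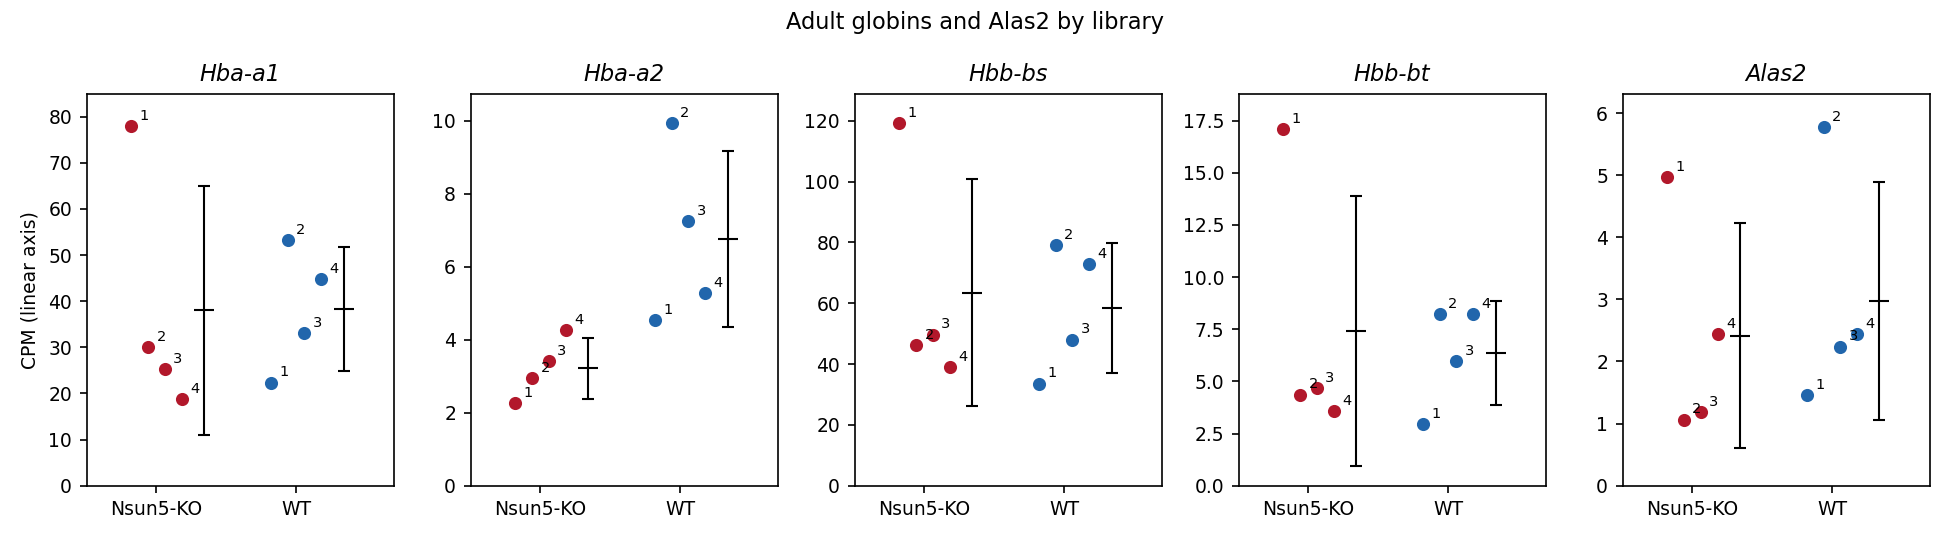
CPM of the 5 genes in each library (points, numbered by replicate) for libraries labelled Nsun5-KO (red) and WT (blue), with bars for mean and SD of 4 libraries and linear y axes that start at 0. Hba-a2 is the row without overlap between the groups, and replicate 1 labelled Nsun5-KO is the highest point for Hba-a1, Hbb-bs and Hbb-bt.

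Counted together, edgeR called 0 of the 5 genes at an adjusted p below 0.05, where it called 0% of the 16062 genes tested. At an unadjusted p below 0.05 it took 1 of 5, Hba-a2, which was lower in libraries labelled Nsun5-KO. Of all tested genes 10.4% passed that threshold, 5.05% lower and 5.3% higher. DESeq2 called 1 of 5, again Hba-a2, and 0.663% of the 14186 genes to which it gave an adjusted p. Groups did not overlap for 1 of 5, where 5.7% of tested genes did not overlap, 2.71% lower and 2.99% higher. The 5 log2 fold changes ran between -1.06 and 0.22, and those of all tested genes ran between -0.51 and 0.34 at their 5% and 95% points, with a median of -0.01. For Hba-a1, Hbb-bs, Hbb-bt and Alas2 the 95% intervals held 0 and reached about 1 log2 unit or more on both sides. Without WT replicates 1 and 2, the libraries apart on the first component, the values were -0.04 for Hba-a1, 0.06 for Hbb-bs, 0.05 for Hbb-bt and 0.04 for Alas2. In bulk tissue, fewer cells of a type and less RNA per cell cannot be told apart.

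What Hba-a1, Hbb-bs, Hbb-bt and Alas2 had in common was spread between libraries rather than a difference between groups. The highest library had 4.14 times the CPM of the lowest for Hba-a1, 4.39 times for Hba-a2, 3.55 times for Hbb-bs, 5.77 times for Hbb-bt and 5.43 times for Alas2. For Hba-a2 the ratio takes in the difference between groups, since it was 1.88 within libraries labelled Nsun5-KO and 2.19 within WT libraries. The median of the ratio of highest to lowest over the 8 libraries was 1.43 for 14938 genes with a mean of at least 1 CPM and no library at 0. A ratio as high as that of Hbb-bt was reached by 1.80% of those genes, and one as high as that of Hbb-bs by 4.87%. Within a group the counts also spread beyond counting error. The presence of such spread is not particular to these genes, since every pair of libraries of a group differed beyond sampling noise (chi-square per degree of freedom 7.22 to 20.4). That value compares a pair of libraries. Its size cannot be set against those below, each of which is for a single gene over a whole group. For Hba-a1 the chi-square per degree of freedom against equal levels was 318 in libraries labelled Nsun5-KO and 78.9 in WT libraries. For Alas2 it was 22.2 in libraries labelled Nsun5-KO and 20.1 in WT libraries, and for Hba-a2 it was 3.62 in libraries labelled Nsun5-KO and 14.3 in WT libraries.

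Hba-a1, Hbb-bs and Hbb-bt varied together from library to library, while the relation of Hba-a2 to them turned on 1 library. Over the 8 libraries Pearson's r of log2 CPM was 0.96 between Hba-a1 and Hbb-bs, 0.96 between Hba-a1 and Hbb-bt and 0.98 between Hbb-bs and Hbb-bt. The same measure was -0.01 between Hba-a1 and its own near-copy Hba-a2, and -0.10 between Hba-a2 and either beta row. Over the 7 libraries other than replicate 1 labelled Nsun5-KO, r was 0.66 between Hba-a1 and Hba-a2, 0.56 between Hba-a2 and Hbb-bs and 0.64 between Hba-a2 and Hbb-bt. Over the same 7 libraries it was 0.93 between Hba-a1 and either beta row and 0.96 between Hbb-bs and Hbb-bt. These values are descriptions over libraries that share a scaling. The summed alpha and summed beta rows had r = 0.95, and 0.92 over the 7 libraries. These sums do not depend on the split between copies, provided that each shared read was counted once. The 4 globins summed to 217, 83.4, 82.9 and 65.6 CPM in replicates 1 to 4 labelled Nsun5-KO and 63.4, 150, 94.3 and 131 CPM in WT replicates 1 to 4. Of the libraries labelled Nsun5-KO, replicate 1 stood above all WT libraries, and the other 3 lay within the WT range. The means were 112 ± 70.1 CPM in libraries labelled Nsun5-KO and 109.8 ± 38.7 CPM in WT libraries (SD, n = 4 each), a difference of 2.29 CPM that was -32.5 CPM without replicate 1 labelled Nsun5-KO.

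**Figure D3:**
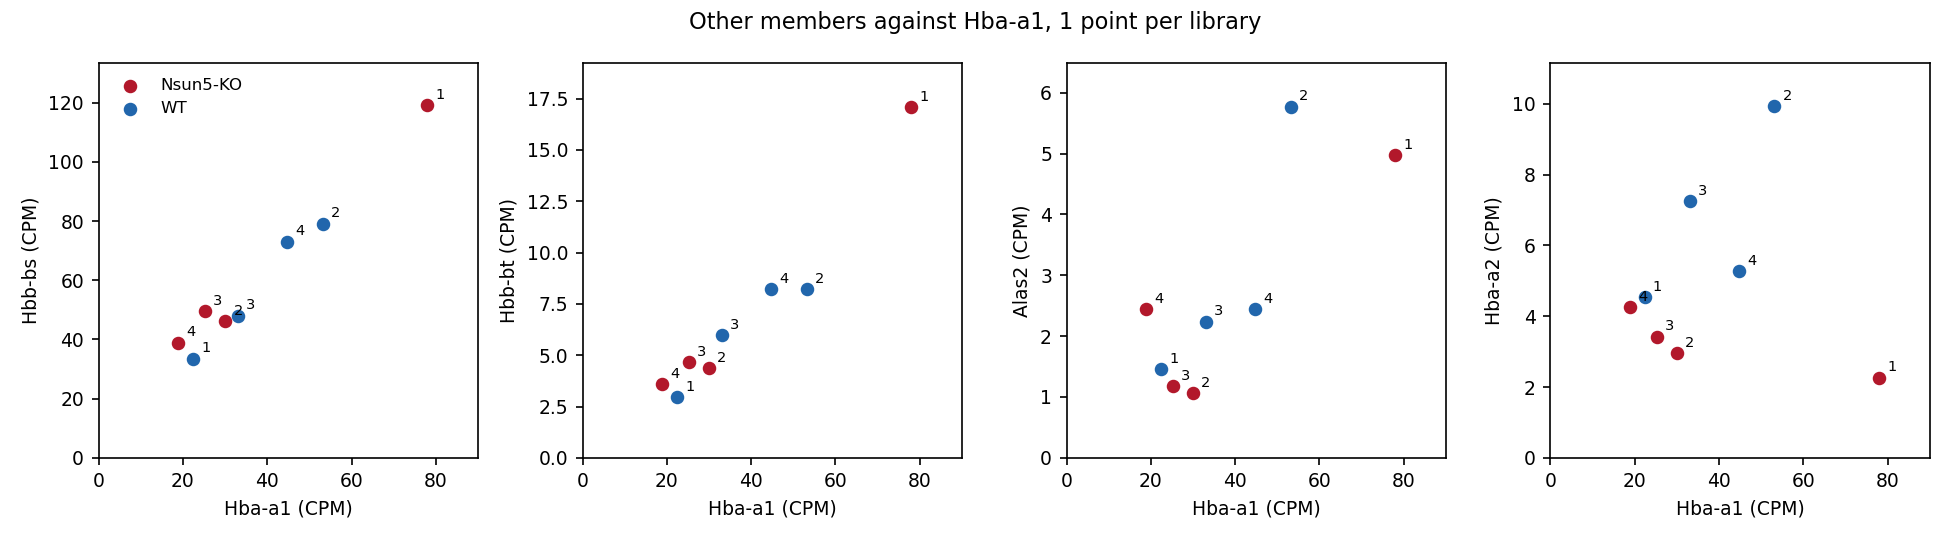
CPM of Hbb-bs, Hbb-bt, Alas2 and Hba-a2 (y axes) against CPM of Hba-a1 (x axes), 1 point per library, numbered by replicate, red for libraries labelled Nsun5-KO and blue for WT. The beta rows follow Hba-a1 across libraries, and in the Hba-a2 panel replicate 1 labelled Nsun5-KO has the most Hba-a1 and the least Hba-a2.

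Alas2 was set against the summed globins. Pearson's r over the 8 libraries was 0.81 in CPM (exact permutation p = 0.0415) and Spearman's rho was 0.60 (exact permutation p = 0.132). After subtraction of the group means Pearson's r was 0.83 (exact permutation p = 0.0315). Without the 2 libraries farthest from the median, replicate 1 labelled Nsun5-KO and WT replicate 2, r was 0.39 (exact permutation p = 0.45) and rho 0.09, so the relation rested on those 2 libraries. Alas2 counts per 10000 globin counts were 229, 127, 142 and 372 in replicates 1 to 4 labelled Nsun5-KO and 229, 384, 237 and 186 in WT replicates 1 to 4. The groups overlapped, with replicate 4 labelled Nsun5-KO and WT replicate 2 at the top.

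The division of alpha counts between the copies was far from constant. Hba-a2 took 2.82%, 8.96%, 11.96% and 18.4% of the alpha counts in replicates 1 to 4 labelled Nsun5-KO, against 16.9%, 15.8%, 18.0% and 10.6% in WT replicates 1 to 4. The lowest share was in replicate 1 labelled Nsun5-KO and the highest in replicate 4 of the same group, so the groups overlapped. The Wilson 95% interval of the lowest share, 36 of 1276 counts, was 2.04% to 3.88%, and that of the highest, 75 of 407, was 15.0% to 22.5%. Such intervals cover counting error only. Over each group the chi-square per degree of freedom of this share was 39.0 in libraries labelled Nsun5-KO and 6.74 in WT libraries, where counting error alone gives about 1. The beta copies divided their counts more evenly across libraries. Hbb-bt took 12.5%, 8.65%, 8.58% and 8.41% of the beta counts in replicates 1 to 4 labelled Nsun5-KO, against 8.12%, 9.40%, 11.1% and 10.1% in WT replicates 1 to 4. Replicate 1 labelled Nsun5-KO was the highest, with a Wilson interval of 11.2% to 14.0%, and the other 3 of its group lay near the WT low end. The chi-square per degree of freedom was 6.59 in libraries labelled Nsun5-KO and 1.35 in WT libraries. In replicate 1 labelled Nsun5-KO, which had the most globin counts, the minor alpha row thus had its smallest share and the minor beta row its largest.

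Ratios within libraries were compared, 4 in all, between the groups with exact two-sided permutation tests, whose smallest possible p is 0.0286 at 4 against 4. The Hba-a1 share of alpha counts averaged 89.5 ± 6.49% in libraries labelled Nsun5-KO and 84.7 ± 3.30% in WT libraries (n = 4 each, exact permutation p = 0.286, adjusted over the 4 ratios 0.571). The Hbb-bs share of beta counts averaged 90.5 ± 2.00% in libraries labelled Nsun5-KO and 90.3 ± 1.25% in WT libraries (exact permutation p = 0.943, adjusted 0.943). Neither difference passed the threshold, and the difference in the Hba-a1 share was 4.76 points with all libraries and 2.19 without replicate 1 labelled Nsun5-KO. Alas2 per 10000 globin counts averaged 218 ± 112 in libraries labelled Nsun5-KO and 259 ± 86.1 in WT libraries (exact permutation p = 0.514, adjusted 0.686).

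The remaining ratio, alpha counts per beta count, was 0.589, 0.653, 0.526 and 0.543 in replicates 1 to 4 labelled Nsun5-KO and 0.736, 0.722, 0.745 and 0.615 in WT replicates 1 to 4. Replicates 1, 3 and 4 labelled Nsun5-KO lay below every WT library, and replicate 2 lay above WT replicate 4 only. The means were 0.578 ± 0.0564 in libraries labelled Nsun5-KO and 0.705 ± 0.0603 in WT libraries (SD, n = 4 each), a difference of -0.127 that did not pass the threshold (exact permutation p = 0.0571, adjusted 0.229). Leaving out replicate 1 labelled Nsun5-KO gave -0.130, and leaving out WT replicates 1 and 2 gave -0.102. As a share, the alpha rows took 36.8% of the 7347 globin counts pooled over libraries labelled Nsun5-KO and 40.9% of the 7309 pooled over WT libraries. The ratio and the share, too, are free of the split between copies only if each shared read was counted once, which is unknown.

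**Figure D4:**
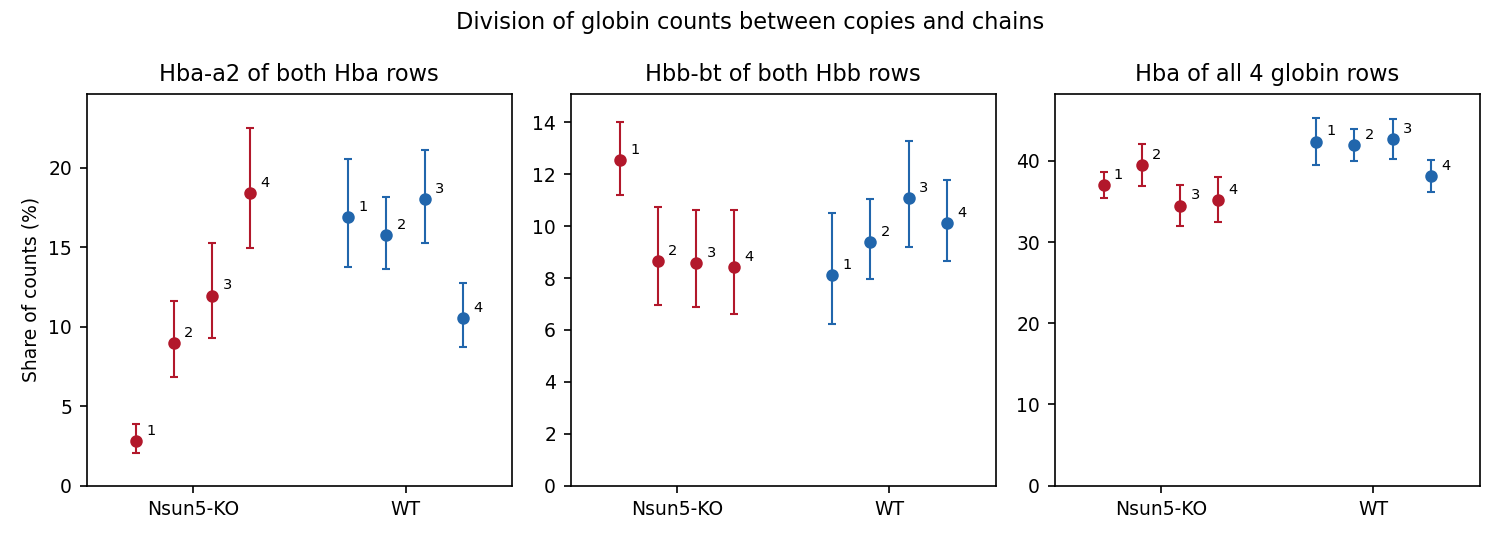
Share of counts in percent, with Wilson 95% intervals, taken in each library by Hba-a2 of the alpha rows, by Hbb-bt of the beta rows and by the alpha rows of all 4 globin rows, red for libraries labelled Nsun5-KO and blue for WT. The Hba-a2 share runs between 2.82% and 18.4% in libraries labelled Nsun5-KO, and the Hbb-bt share between 8.12% and 12.5% over all 8 libraries.

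The name residual blood was checked against other genes of blood. Of 21 other red cell genes in the table, 13 had under 10 counts in every library, and these 13 summed to 5 to 17 counts in libraries labelled Nsun5-KO and 11 to 18 in WT libraries. Among the defining genes, Slc4a1, the anion exchanger of the red cell membrane, had 0 to 2 counts in libraries labelled Nsun5-KO and in WT libraries alike. Hemgn, an erythroid nuclear factor gene, was at 0 in all 8. The list's summed level of 678 to 760 CPM in libraries labelled Nsun5-KO and 649 to 725 CPM in WT libraries came mainly from 5 genes at 20 CPM or more that brain tissue also expresses. These were Tmcc2 (mean 231 CPM over the 8 libraries), the beta spectrin gene Sptb (221 CPM), the transferrin receptor gene Tfrc (141 CPM), Bpgm (66.4 CPM) and the mitochondrial iron carrier gene Slc25a37 (28.5 CPM). Of the 8 list genes tested, edgeR and DESeq2 called 0 (0 also at an unadjusted edgeR p below 0.05), and the median log2 fold change was 0.13. The source of the globin counts was not tested.

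The other globin genes of the alpha and beta clusters were near 0 too. Hba-x, Hbb-bh1, Hbb-bh2 and Hbb-bh0 had 0 counts in all 8 libraries. The embryonic beta-like gene Hbb-y had 0 to 4 counts, Hbq1a 3 to 8 and Hbq1b 0 to 3. Among globins of other tissues, the cytoglobin gene Cygb had 821 to 1197 counts (log2 fold change -0.00, edgeR adjusted p = 0.993), and the myoglobin gene Mb had 0 to 8. Neuroglobin, Ngb, a neuronal globin, had 60 to 154 counts in libraries labelled Nsun5-KO and 98 to 238 in WT libraries (log2 fold change -0.69, SE 0.30, edgeR adjusted p = 0.469).

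The other genes of the heme pathway varied less between libraries as a sum, with 1 wide-ranging member. All 8 other enzymes of heme synthesis were tested, edgeR and DESeq2 called 0 (0 also at an unadjusted edgeR p below 0.05), and 4 lay above WT and 4 below, with a median log2 fold change of 0.01. Their sum was 276 to 296 CPM in libraries labelled Nsun5-KO and 256 to 298 CPM in WT libraries. Alad, the enzyme after aminolevulinate synthase, ranged widely, with 608 to 876 counts in libraries labelled Nsun5-KO and 319 to 940 in WT libraries (log2 fold change 0.20). Alas1, the housekeeping form of the enzyme that Alas2 encodes, had 791 to 849 counts in libraries labelled Nsun5-KO and 776 to 928 in WT libraries (log2 fold change -0.05). Fech, which inserts the iron as the closing step, had 1004 to 1206 counts in libraries labelled Nsun5-KO and 1021 to 1191 in WT libraries (log2 fold change -0.01).

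Markers of other blood cells were low, and for the lists of blood, vessel, choroid plexus and meningeal genes that follow neither edgeR nor DESeq2 called a member. At an unadjusted p below 0.05, edgeR took 1 lymphocyte gene, Ighm, and 1 meningeal gene, where 10.4% of all tested genes passed that threshold. Few blood cell genes could be called at all, since edgeR tested 4 platelet genes, 1 neutrophil gene and 1 lymphocyte gene, and DESeq2 gave an adjusted p to 1 platelet gene, 0 neutrophil genes and 1 lymphocyte gene. The 9 platelet genes summed to 3.73 to 5.05 CPM in libraries labelled Nsun5-KO and 3.78 to 5.18 CPM in WT libraries, with r = -0.28 to the summed globins in log2 levels over the 8 libraries, and -0.43 without replicate 1 labelled Nsun5-KO. The 10 neutrophil genes summed to 1.36 to 2.67 CPM in libraries labelled Nsun5-KO and 0.737 to 3.08 CPM in WT libraries (r = -0.27, and -0.52 without that library), and 8 of them had under 10 counts in every library. Among the neutrophil genes, S100a8 had 1 to 8 counts and S100a9 1 to 11, and Ltf and Elane were at 0. Of 12 lymphocyte and monocyte genes, 10 had under 10 counts in every library, and r of the list's sum was 0.43, or 0.09 without that library. The member abundant enough to be tested was Ighm, the immunoglobulin heavy chain gene, with 466 to 597 counts in libraries labelled Nsun5-KO and 255 to 467 in WT libraries (log2 fold change 0.61, SE 0.17, edgeR adjusted p = 0.316). The 14 endothelial genes, a measure of vessels, summed to 378 to 436 CPM in libraries labelled Nsun5-KO and 395 to 435 CPM in WT libraries, with a median log2 fold change of 0.02 and r = 0.25, or -0.01 without that library.

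Choroid plexus genes were high in some of the libraries that were high in globins. All 9 of that list were tested, and all 9 had a log2 fold change below 0, with a median of -0.92. The groups overlapped for each gene, and 0 of the 9 had an unadjusted edgeR p below 0.05. The summed level of the list was 1210, 141, 305 and 56.8 CPM in replicates 1 to 4 labelled Nsun5-KO and 1039, 1197, 687 and 317 CPM in WT replicates 1 to 4. Replicate 1 labelled Nsun5-KO and WT replicate 2 were the highest of their groups here, as they were for the summed globins, while WT replicate 1 was high for choroid plexus genes and lowest for globins. Pearson's r of the log2 levels over the 8 libraries was 0.55, and 0.42 without replicate 1 labelled Nsun5-KO. The 7 meningeal genes also had log2 fold changes below 0, with a median of -0.28, and r with the globins was -0.17. The part of the choroid plexus content in the globin values was not tested.

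**Figure D5:**
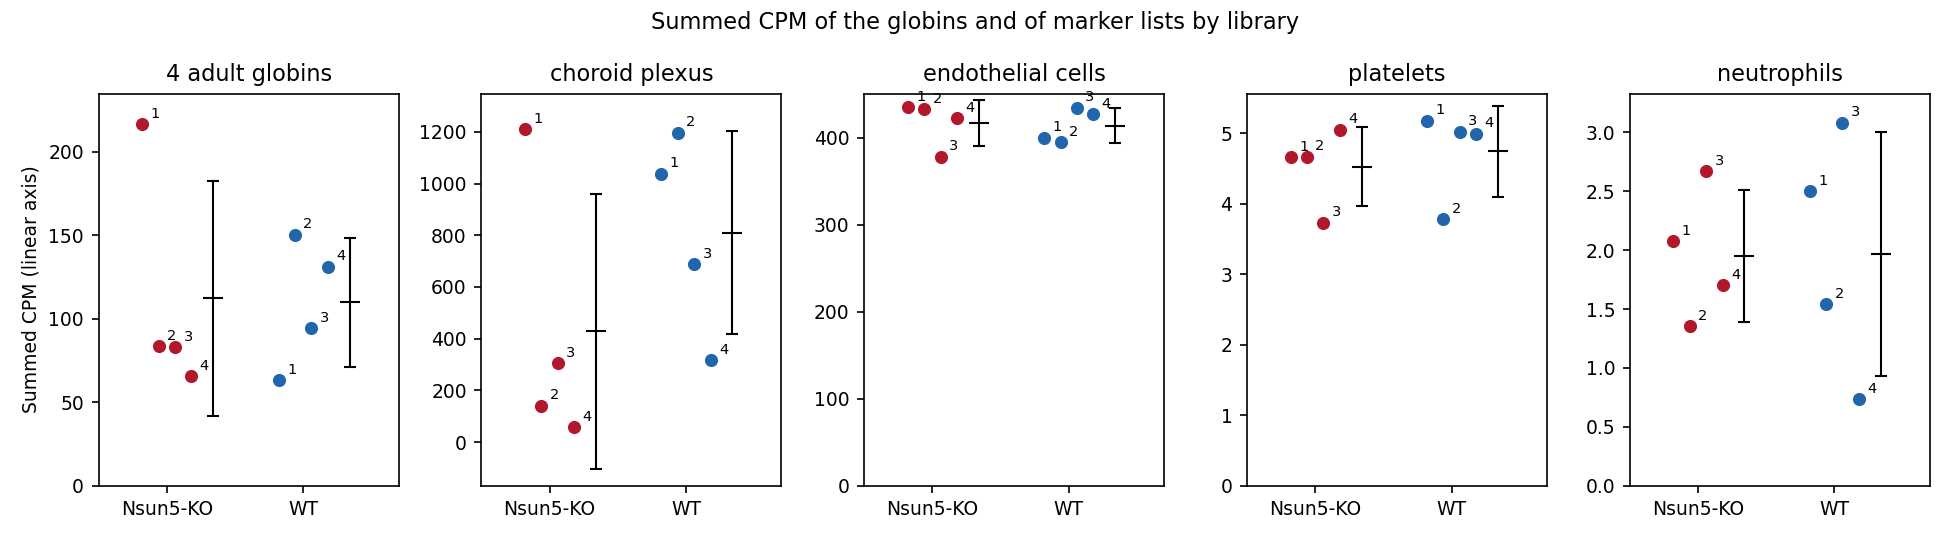
Summed CPM of the 4 adult globins and of the choroid plexus, endothelial, platelet and neutrophil lists in each library (points, numbered by replicate), red for libraries labelled Nsun5-KO and blue for WT, with bars for mean and SD of 4 libraries (the choroid plexus bar reaches below 0) and linear y axes. Replicate 1 labelled Nsun5-KO is highest for globins and for choroid plexus genes, and the endothelial sums lie between 378 and 436 CPM.

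Among 14945 other genes with a mean of at least 1 CPM, 3 had r of 0.9 or more with the summed globins over the 8 libraries and 13 had r of -0.9 or less. The 8 with the highest r were Actb (0.95), Gm3693 (0.94), Ptms (0.93), Slc25a42 (0.89), Cox18 (0.89), Blzf1 (0.89), Rab43 (0.88) and Tldc1 (0.88). Actb, the beta-actin gene, ran only between 834 and 904 CPM, whereas the summed globins ran between 63.4 and 217 CPM. With 8 libraries and this many genes, high values of r are found in both directions, and these are given as a description.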

How the data were processed

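Brain RNA was sequenced as 4 libraries labelled Nsun5-KO and 4 labelled WT. Per the labels, TRIzol was used for extraction and a NEBNext Ultra RNA kit, which keeps no strand, for the libraries. The submitters' processing notes name HISAT2 2.0.5 and mm10, and for the read counter the sources used here give no name. The authors deposited a raw count per gene and library, in whole reads. Each FPKM value the authors deposited is that count over gene length and over a factor shared by the whole library, at 0.981 to 1.02 of its total.

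Counts were tested with edgeR 4.0.16 (filterByExpr by group, TMM scaling, robust quasi-likelihood F test, no covariates, all 8 libraries) in R 4.3.3, with Benjamini-Hochberg adjustment over all 16062 genes tested and a call at an adjusted p below 0.05. CPM used TMM-scaled library sizes. Summed copies replaced their rows before the fit. Log2 fold changes are Nsun5-KO over WT. Ratios within libraries were compared by exact two-sided permutation over 70 labelings in scipy 1.17.1. The summed level of the 4 globins was given without a test. Shared windows and alignments used the main GENCODE M21 transcript of each gene, with Biopython 1.88. The overlap of Alas2 with Apex2 used all annotated exons. Sequences are GENCODE M21 coding sequence. For the ranking of single genes by r with the summed globins, log2 CPM of those genes carried a prior count of 2. The summed globins, the list sums and the member rows were taken as log2 CPM without a prior count. Alas2 against the summed globins used CPM.

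The genes and marker lists were chosen with earlier results of these data known. The text names the 5 genes, Nsun5, genes that overlap or share windows with them, up to 4 list members with the highest mean CPM and the 8 genes most alike the summed globins; low or absent list genes and others named singly were chosen after their values were seen. Same-numbered libraries deviated from their group means with correlations of -0.213 to 0.0631, so the numbers were not taken to pair samples. No pair of libraries of a group agreed within sampling noise (chi-square per degree of freedom 7.22 to 20.4). Alternatives were DESeq2 1.42.0, its size factors, no filter, limma 3.58.1 on log2(FPKM + 1) and log2(FPKM + 0.1), each library left out, and a block for the replicate number. After the data were seen, fits without WT replicates 1 and 2 and without mitochondrial genes were added, as were correlations with a library left out. The edgeR steps were tested on simulated data. Some list genes are not reported here.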

Additional observations from a re-analysis of the deposited data

Results flagged for a closer look

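Replicate 1 labelled Nsun5-KO stood far from the other 3 libraries of its group in 5 of the 12 groups of 4 that hold it, where its gap to the nearest library, as a part of the group's range, exceeded Dixon's 95% critical value. No library stood apart in this way in the 12 WT groups. Chance alone flags about 1 in 20 such groups, and the 5 values share the same counts, so they are not independent. Hbb-bs had 119 CPM there and 38.9 to 49.7 CPM in replicates 2 to 4 (gap 0.866 of the range). Hbb-bt had 17.1 CPM there and 3.57 to 4.66 CPM in replicates 2 to 4 (gap 0.920). The summed beta rows had 136 CPM there (gap 0.874) and the 4 globins together 217 CPM (gap 0.882). The Hbb-bs share of beta counts was 87.5% there and 91.3% to 91.6% in replicates 2 to 4 (gap 0.941). Hba-a1 and Alas2 were also highest of their group in this library, at 78.0 and 4.97 CPM, while Hba-a2 was lowest at 2.26 CPM.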

How the results depend on the processing

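The count of called genes depended on the tool. EdgeR called 0 of all genes (1663 at an unadjusted p below 0.05), DESeq2 called 94, edgeR without a low-count filter 68, and edgeR with 1 library left out 0 to 2, the 2 arising without replicate 4 labelled Nsun5-KO. Hba-a2 was called by DESeq2 (log2 fold change -1.06, adjusted p 0.0395) and without the filter (-1.05, adjusted p 0.0391). It kept its direction in all alternatives run, with -1.22 to -0.82 when a library was left out and edgeR adjusted p of 0.221 to 0.610.

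The other log2 fold changes changed sign when single libraries were left out. The ranges were -0.63 to 0.21 for Hba-a1, -0.38 to 0.29 for Hbb-bs, -0.59 to 0.45 for Hbb-bt, -0.92 to 0.23 for Alas2, -0.674 to 0.0722 for the summed alpha rows and -0.40 to 0.31 for the summed beta rows. The lowest values of these 6 were all without replicate 1 labelled Nsun5-KO. Without WT replicates 1 and 2, Alas2 was at 0.0373 (log2) and Alas2 per 10000 globin counts differed by 6.25. With 1 library left out the difference in that ratio was -92.6 to 0.313, the Hba-a1 share differed by 2.19 to 7.39 points, the Hbb-bs share by -0.334 to 1.13 points, alpha counts per beta count by -0.157 to -0.110, and the summed globins by -32.5 to 17.8 CPM. The correlation of Alas2 with the summed globins was 0.39 without the 2 farthest libraries.

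With the replicate number as a block, Hbb-bt was at -0.0487 (log2), Hba-a1 at -0.20, Hba-a2 at -1.03, Hbb-bs at 0.01 and Alas2 at -0.36, and 0 genes were called. The numbers share no pairing in the labels, and 0 of 8 libraries correlated best with its own number. Sign changes over 4 pairs cannot give p under 0.05. Nor can exact permutation tests of the ratios with a library left out, so their p-values decide nothing at that threshold. The lowest of these was 0.0571, for alpha counts per beta count.

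Depth limits Hba-a2 and Alas2 most, at 36 to 155 and 18 to 90 counts per library.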
